A study of Mus musculus with 2 samples.

Results

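The miR-30 family of the embryonic mouse midbrain comprised 6 loci, Mir30a, Mir30b, Mir30c-1, Mir30c-2, Mir30d and Mir30e, chosen by gene symbol among the 1973 loci of the gene tables. MicroRNA sequencing had read the small RNA (under 30 nt) of midbrain from healthy B6NCrl mouse embryos at 13.5 days, with male and female embryos pooled. There was 1 group of 2 biological replicates, each with its own library, and no genotype, treatment or other age to compare. Both tissue samples carry the same donor record, so the spread between them may be partly technical. Both values of each locus are therefore given as levels in this tissue.

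MicroRNAs are cut from hairpin precursors, loaded into Argonaute proteins and guided to messenger RNAs mainly by bases 2 to 8 of the mature strand, the seed. The members of the miR-30 family share 1 seed, and so are taken to repress overlapping sets of messages. The family is known for its expression in differentiated tissues such as kidney, for repressing Snai1 in the epithelial to mesenchymal transition and for repressing the autophagy gene Beclin 1 in human cells. In brain, miR-30a has been described as a repressor of BDNF, a neuronal growth factor. The 6 loci lie in 3 genomic pairs, and a pair can be cut from 1 primary transcript.

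The mature 5p sequences are shown because they set both what the members share and which of them the counts could tell apart. RefSeq (GRCm38.p6) gave sequences for 4 of the 6 members, and Mir30b and Mir30d had no entry. Capitals mark bases 2 to 8, and sequences run 5′ to 3′.

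miR-30a-5p (Mir30a): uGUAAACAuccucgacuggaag

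miR-30e-5p (Mir30e): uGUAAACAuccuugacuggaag

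miR-30c-5p (Mir30c-1 and Mir30c-2): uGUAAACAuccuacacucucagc

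miR-384-5p (Mir384): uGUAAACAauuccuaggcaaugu

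The first 12 bases were the same in the 5p sequences of Mir30a, Mir30c-1, Mir30c-2 and Mir30e. From there miR-30a-5p and miR-30e-5p differed at 1 of 22 bases, C13U (base of miR-30a first, positions counted from 1 at the 5′ end). The seed occurred in 5 of the 1738 mature entries of the table, and the only locus outside the family among them was Mir384, on the X chromosome, whose 5p sequence shared 8 first bases with the others. The miR-30c-5p sequence was identical in the Mir30c-1 and Mir30c-2 hairpins, which shared an exact run of 28 nt. No other pair of the 4 hairpins shared more than 18 nt (Mir30a and Mir30e), and the shared run was 12 nt between either of those and either Mir30c hairpin. Multimapping reads were left out of the counts of every locus, so a read lying wholly within that 28 nt run could be counted at neither Mir30c locus.

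The 3p strands of the Mir30c loci are shown because they are the mature sequences that separate these loci. Capitals mark the bases at which they differ.

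miR-30c-1-3p (Mir30c-1): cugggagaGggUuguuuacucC

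miR-30c-2-3p (Mir30c-2): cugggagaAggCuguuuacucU

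They differed at 3 of 22 bases, G9A, U12C and C22U with the base of miR-30c-1-3p first, and each was found in 1 hairpin. Their bases 2 to 8 (UGGGAGA) were not those of the 5p strands. The 3p strands of Mir30a and Mir30e formed another seed group (UUUCAGU) and differed at 1 base, G18A with the base of miR-30a-3p first. Each of these strands was also found in 1 hairpin. Counts are per hairpin, so the 5p and 3p arms were not told apart.

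Replicate 1 held 5093743 reads assigned to a locus on its own strand and replicate 2 held 2935841. Multimapping reads made up 34.4% of the reads of replicate 1 and 37.7% of those of replicate 2. The neural marker list (miR-9, miR-124, miR-128, miR-137, miR-219, Mir92b and Mir135b) summed to 32733 and 30981 CPM (same-strand counts scaled to the library total), and the 12 of its 13 loci that have a row all had counts in both libraries. Its highest loci were Mir135b (11427 and 10751 CPM), Mir137 (9265 and 6397 CPM) and Mir92b (8440 and 9987 CPM). Mir124a-1 (2.36 and 2.38 CPM), Mir124a-2 (9.42 and 9.20), Mir124a-3 (1.57 and 1.70) and Mir9-2 (1.77 and 2.38) were far lower. The endothelial Mir126a stood at 16256 and 21170 CPM, the mural and mesenchymal list at 5285 and 6963 CPM, Mir122 of liver at 58.9 and 139 CPM, and the leukocyte list at 172 and 224 CPM. Erythroid loci summed to 81.7 and 73.6 CPM. Muscle loci summed to 14.7 and 10.6 CPM, with Mir1a-1, Mir133a-1 and Mir133a-2 at 0. Reads of a mature sequence present at more than 1 locus can be lost as multimapping. A low or 0 count in these lists therefore need not mean absence of the microRNA. In bulk tissue, fewer cells of a type and less RNA per cell cannot be told apart.

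The family held 3.85% of all counts in replicate 1, with a range of 3.84 to 3.87 by the 95% exact Clopper-Pearson method, and 3.37% in replicate 2 (3.35 to 3.39). Its mean share was 3.61% ± 0.343 (SD, n = 2). Intervals cover counting error only, since the tables give reads and no molecular identifiers. Nearly all of it came from 3 loci, with Mir30e, Mir30a and Mir30d making up 99.4% of the family's counts in replicate 1 and 99.3% in replicate 2. Mir30b, Mir30c-1 and Mir30c-2 together made up 0.562% and 0.727%. A small RNA read is taken to span a whole small RNA and not a fragment of a long one, so levels are given as CPM. Without molecular identifiers, read counts are not counts of molecules. The members kept the same order per 100 nt of hairpin.

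Mir30e was the highest member, at 21417 CPM in replicate 1 and 18440 CPM in replicate 2 (109093 and 54137 counts), or 19928 ± 2105 CPM (SD, n = 2). It held 55.6% and 54.7% of the family's counts, and stood in places 10 and 14 among all loci. Mir30e lies on chromosome 4 from 120772606 to 120772697 (mm10, minus strand), in an intron of Nfyc, which encodes a subunit of the CCAAT-binding transcription factor NF-Y. On the other strand at the same place the later annotation has a further locus, Mir30f, without a row in the tables. The mature miR-30f sequence holds the seed letters of the family at bases 1 to 7. No count fell on the opposite strand at Mir30e in either library, which allows up to 0.589 and 1.02 CPM (3 counts).

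Mir30a, the locus of the hairpin widely used as a backbone for short hairpin RNAs in its human form, stood at 10030 CPM in replicate 1 and 9167 CPM in replicate 2 (51092 and 26914 counts). Its mean was 9599 ± 610 CPM, and it held 26.0% and 27.2% of the family's counts. It lies on chromosome 1 from 23272269 to 23272339 (plus strand), with no other annotated gene over it. The version of its gene ID differs between the tables and the annotation used here for coordinates.

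Mir30d followed at 6885 CPM in replicate 1 and 5852 CPM in replicate 2 (35068 and 17181 counts), a mean of 6368 ± 730 CPM. It lies on chromosome 15 from 68341208 to 68341289 (minus strand), within an exon of the long noncoding RNA Gm20732. It held 17.9% and 17.4% of the family's counts.

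The other 3 members were far lower. Mir30b stood at 119 CPM in replicate 1 and 125 CPM in replicate 2 (606 and 367 counts), a mean of 122 ± 4.27 CPM. Mir30c-1 stood at 65.4 and 74.3 CPM (333 and 218 counts), a mean of 69.8 ± 6.28 CPM, and lies, like Mir30e, in an intron of Nfyc, on chromosome 4 from 120769534 to 120769622. Mir30c-2 was the lowest, at 32.2 CPM in replicate 1 and 45.6 CPM in replicate 2 (164 and 134 counts), a mean of 38.9 ± 9.51 CPM. Mir30b is on chromosome 15 from 68337415 to 68337510, partly inside an exon of the transcript Gm26621. Mir30c-2 is on chromosome 1 from 23291701 to 23291784, within an exon of the long noncoding RNA Gm27028. Because the miR-30c-5p sequence is common to both Mir30c loci, these values are uncertain as levels of mature miR-30c.

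**Figure D1:**
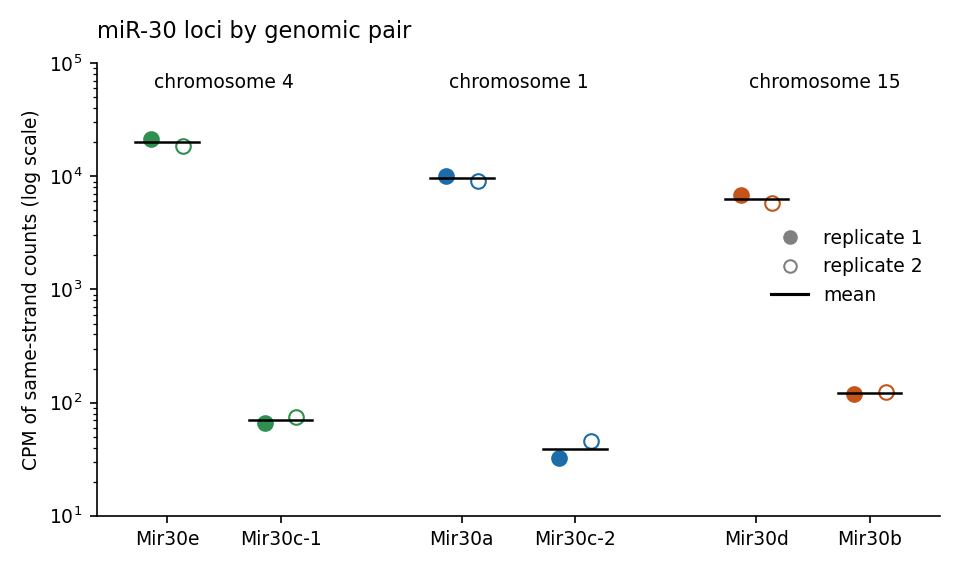
Level of each miR-30 locus in CPM of same-strand counts on a log axis, grouped by genomic pair, with replicate 1 filled, replicate 2 open and the mean as a line. Mir30e, Mir30a and Mir30d lie between 5852 and 21417 CPM, and Mir30b, Mir30c-1 and Mir30c-2 between 32.2 and 125 CPM.

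The order of the 6 levels, Mir30e, Mir30a, Mir30d, Mir30b, Mir30c-1 and Mir30c-2, was the same in both libraries, and the values of no neighbours in it overlapped. Mir30e exceeded Mir30a 2.14-fold in replicate 1 and 2.01-fold in replicate 2 in CPM. Mir30a exceeded Mir30d 1.46-fold and 1.57-fold. The gap between Mir30d and Mir30b was the widest of the order, 57.9-fold and 46.8-fold. Mir30b exceeded Mir30c-1 1.82-fold and 1.68-fold, and Mir30c-1 exceeded Mir30c-2 2.03-fold and 1.63-fold. With 2 libraries no test over samples was made of this order. For scale, the median level was 53.0 CPM over the 466 loci with at least 10 counts in both libraries together, and 91 of these (19.5%) reached a mean of 1000 CPM, 3 of them members of the family.

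Among the mature entries searched, Mir384 was the only locus outside the family with its seed. Loci without an entry could not be searched. Mir384 stood at 328 CPM in replicate 1 and 282 CPM in replicate 2 (1670 and 827 counts), a mean of 305 ± 32.6 CPM. It thus lay between Mir30d and Mir30b in both libraries. It lies on the X chromosome from 105344282 to 105344369, with no other annotated gene over it, and its longest exact run shared with any of 1004 other hairpins was 11 nt.

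Outside the family, the locus nearest to each member over the pair of libraries, by Euclidean distance of log2(CPM + 0.5), was named as a reference level. Mir93 lay nearest to Mir30e at 21998 and 19531 CPM (distance 0.091). Mir369, of the imprinted Dlk1-Dio3 region, lay nearest to Mir30a at 8800 and 8380 CPM (distance 0.23), and Mir127 of the same region nearest to Mir30d at 7059 and 5980 CPM (distance 0.048). Among the low members, Mir592 lay nearest to Mir30b at 116 and 128 CPM (distance 0.046). Mir216a lay nearest to Mir30c-1 at 67.7 and 77.7 CPM (distance 0.082), and Mir7j nearest to Mir30c-2 at 32.0 and 43.9 CPM (distance 0.055). Likeness over 2 libraries is a likeness of level only.

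The genomic pairs were compared because their members may come from 1 transcript. Each pair held 1 high and 1 low locus. The pair on chromosome 4, Mir30e and Mir30c-1, lies 2983 bp apart on the minus strand and held 55.7% of the family's counts in replicate 1 and 54.9% in replicate 2. The pair on chromosome 1, Mir30a and Mir30c-2, lies 19361 bp apart on the plus strand and held 26.1% and 27.3%. The pair on chromosome 15, Mir30d and Mir30b, lies 3697 bp apart on the minus strand and held 18.2% and 17.7%.

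Within the chromosome 4 pair, Mir30e exceeded Mir30c-1 328-fold in replicate 1 (exact interval 294 to 366) and 248-fold in replicate 2 (217 to 285), a mean log2 ratio of 8.16 ± 0.28 (SD, n = 2). Mir30a exceeded Mir30c-2 312-fold in replicate 1 (267 to 365) and 201-fold in replicate 2 (170 to 239.8), a mean log2 ratio of 7.97 ± 0.45. The lower locus is a Mir30c locus in both of these pairs. Mir30d exceeded Mir30b 57.9-fold in replicate 1 (53.4 to 62.8) and 46.8-fold in replicate 2 (42.2 to 52.1), a mean log2 ratio of 5.70 ± 0.22. The ratio of the chromosome 15 pair was below those of the other pairs in both libraries, with no overlap of intervals. Mir30b and Mir30d had no sequence entry, so a loss of their reads as multimapping could not be checked.

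Neighbouring microRNA loci on 1 strand, at most 10 kb apart and with at least 10 counts each, gave 104 pairs with a median ratio of higher to lower locus of 8.16-fold. Among them Mir30e over Mir30c-1 ranked 10 and Mir30d over Mir30b ranked 25 by size of the log2 ratio. With a minimum of 1 count per locus they ranked 20 and 38 of 138 pairs. Mir30a and Mir30c-2 lie too far apart for this set, and with neighbours up to 50 kb apart they ranked 11 of 114, directly after Mir30e and Mir30c-1. A description of the 104 pairs without those of the family, chosen after the values were seen, split them by whether a mature sequence of a locus is also annotated at another locus. The median ratio was 6.72-fold in 76 pairs where neither locus had such a sequence, 19.7-fold in 16 pairs where 1 did, and 50.9-fold in 5 pairs where both did. The largest log2 ratios were in the reverse order, 10.8, 9.93 and 8.68. In the other 5 pairs at least 1 locus had no mature entry. The loss of shared reads from the Mir30c counts was not measured, and its part in the ratios was not tested.

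**Figure D2:**
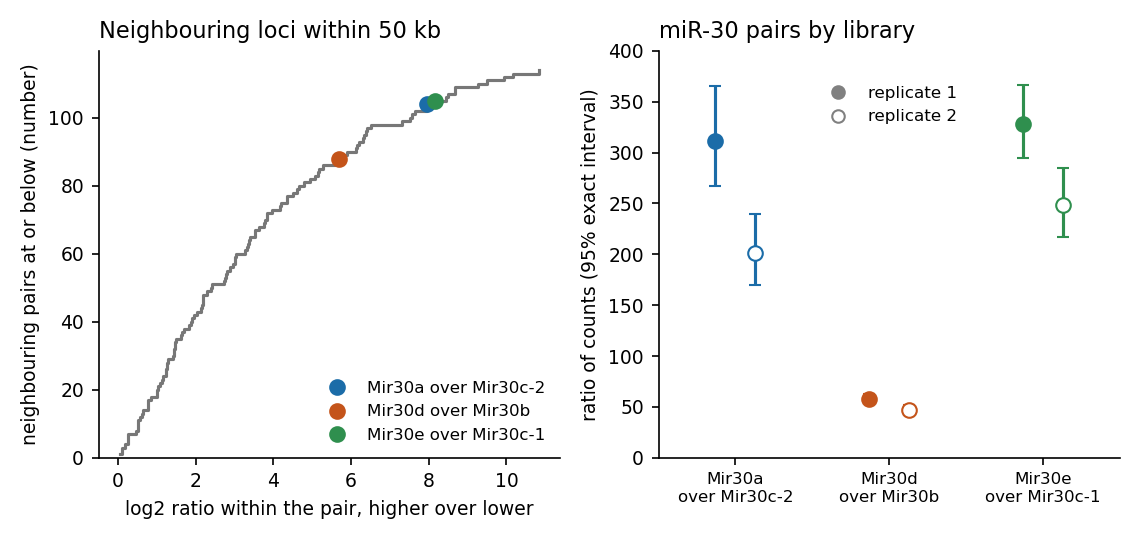
Left, number of neighbouring microRNA pairs (within 50 kb, 114 pairs) at or below each log2 ratio of higher to lower locus, with the miR-30 pairs as coloured points. Right, ratio of counts within each miR-30 pair in replicate 1 (filled) and replicate 2 (open), with 95% exact intervals of counting error, which for Mir30d over Mir30b are about as small as the points, and the ratio is lower in replicate 2 for every pair.

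All 3 ratios were lower in replicate 2, that is, the high loci had a smaller lead there. Fisher's exact test of locus by library, adjusted by Benjamini-Hochberg over all 104 neighbouring pairs, gave a change of the log2 ratio (replicate 1 minus replicate 2) of 0.31 for Mir30d over Mir30b, with an adjusted p of 0.00567. The change was 0.40 for Mir30e over Mir30c-1, also with an adjusted p of 0.00567 in Fisher's exact test. Of all 104 pairs, 44.2% passed this test, so a pass was common. Replicate 1 was also thinned to the depth of replicate 2, in 1 random draw. This ended the call of Mir30e over Mir30c-1 (change 0.31, adjusted p = 0.0719 in Fisher's exact test, against 0.00573 to 0.00752 under the other alternatives). Mir30d over Mir30b still passed in that draw (change 0.28, adjusted p = 0.0321 in Fisher's exact test). Other draws were not made, and thinning was not run for Mir30a over Mir30c-2. For Mir30a over Mir30c-2, among the 114 pairs within 50 kb, of which 43% passed, the change was 0.63 and the adjusted p of Fisher's exact test 0.000907. The test compares 2 libraries, not conditions, and takes in no spread between animals. The median size of the change was 0.31 over the 104 pairs, against 0.31 for the chromosome 15 pair and 0.40 for the chromosome 4 pair. Over the 114 pairs within 50 kb it was 0.29, against 0.63 for Mir30a over Mir30c-2.

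Between the libraries, 4 of the 6 members passed the exact conditional binomial test given library sizes scaled by TMM (a trimmed mean of ratios), with Benjamini-Hochberg adjustment over the 466 loci. Of these loci 38% passed, so a pass here, too, was common. With a minimum of 50 counts, which all members exceed, 52.3% of 331 loci passed. Like Fisher's exact test above, the binomial test takes in no spread between animals. Log2 ratios below set replicate 1 over replicate 2, with exact intervals of counting error. Mir30e had a ratio of 0.15 (interval 0.13 to 0.16), 1.11-fold in favour of replicate 1, with an adjusted p of 9.02e-86. Mir30d was 1.12-fold higher there (0.17, interval 0.14 to 0.19, adjusted p = 4.03e-35), and Mir30a 1.04-fold higher (0.063, interval 0.042 to 0.084, adjusted p = 3.62e-08).

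Mir30c-2 went the other way, 1.48-fold higher in replicate 2 (-0.56, interval -0.91 to -0.23), with an adjusted p of 0.0029 in the exact conditional binomial test. Mir30b (-0.14, interval -0.33 to 0.053) and Mir30c-1 (-0.25, interval -0.50 to 0.0025) did not pass, with adjusted p-values of 0.28 and 0.114 in the same exact test. Over all 466 loci, 18.7% passed as higher in replicate 1 and 19.3% as higher in replicate 2. Mir384 was 1.11-fold higher in replicate 1 (0.15, interval 0.031 to 0.27, adjusted p = 0.0365 in the same exact test).

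All 6 members lay within 1.5-fold between the libraries, as did 377 (80.9%) of the 466 loci and 192 (93.7%) of the 205 loci that averaged at least 100 CPM. The median size of the log2 ratio was 0.16 over the members, 0.23 over the 466 loci and 0.15 over those 205 loci. The common biological coefficient of variation, estimated by edgeR without a contrast, was 0.157. Endothelial, mural and liver markers were higher in replicate 2, with the values given above, and multimapping reads were a larger share there. Their part in the differences between libraries was not tested.

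**Figure D3:**
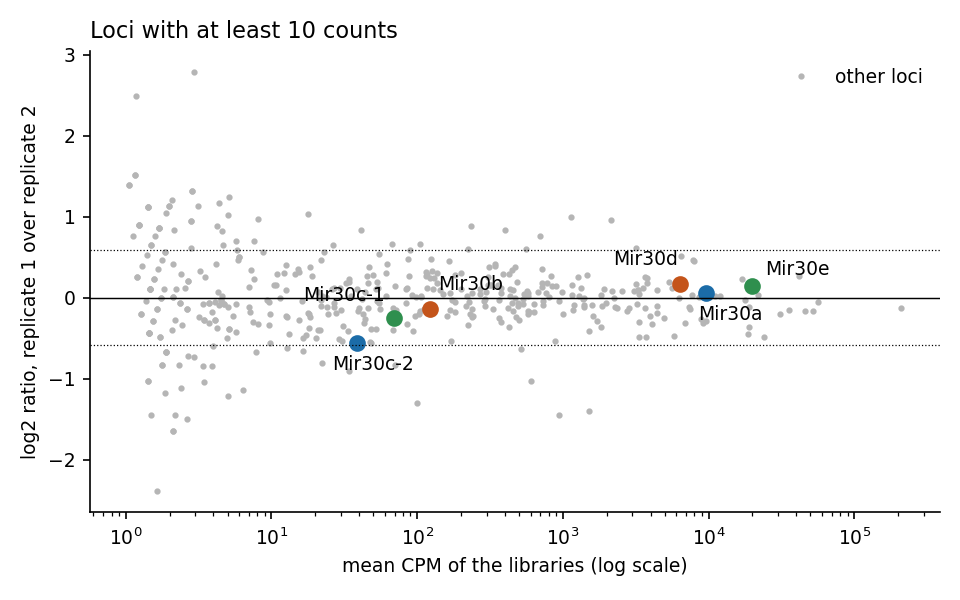
Log2 ratio of replicate 1 to replicate 2, TMM-scaled with 0.5 CPM added, against mean CPM on a log axis for the 466 loci with at least 10 counts, with the 6 miR-30 loci coloured by genomic pair and dotted lines at 1.5-fold. The members lie between -0.56 (Mir30c-2) and 0.17 (Mir30d), inside the dotted lines.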

How the data were processed

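The authors deposited raw read counts per gene in 1 table per library. The build was mm10 and the annotation M4, per the file headers. The sources used here do not give the aligner, trimming or filters. The 3 count columns have no names. The first was the sum of the others in 3946 of 3946 rows over both tables, and the second was read, as an inference from the values, as the same-strand count and used throughout. The 4 leading rows hold unmapped, multimapping, unassigned and ambiguous reads and were kept out of library totals. In replicate 1 they were 16.1%, 34.4% and 3.79% of reads with an ambiguous count of 0, and in replicate 2 15.7%, 37.7% and 3.80% with 0.

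Names and coordinates came from GENCODE M21 (same assembly), which matched 1894 of 1973 IDs without their version. Mature sequences came from RefSeq (GRCm38.p6). CPM, the exact binomial test between libraries (at least 10 counts over both, TMM factors from edgeR 4.0.16, Benjamini-Hochberg over all loci at 0.05), Fisher's exact test over neighbouring pairs and Clopper-Pearson intervals were computed here with scipy 1.17.1. Both tests were run on simulated counts that held sampling noise only. That simulation cannot show how often they make false calls under a larger spread. With 1 group edgeR could fit no contrast. The libraries differed by more than sampling noise (chi-square per degree of freedom 93.5). As alternatives, size factors of DESeq2 1.42.0 or total counts replaced TMM, and the others were other count minimums, distances, pseudocount, denominators, unstranded counts, hairpin length, thinning and each replicate left out.

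The 6 members and the marker lists were chosen with earlier results of these data known. Named loci were the members, loci outside the family with the same mature seed, and for each member the nearest locus by level in both libraries. Also named were Mir99a, the highest locus, Mir30f, annotated opposite Mir30e, and single loci of the marker lists. The marker loci had been planned for ranges and counts only.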

Additional observations from a re-analysis of the deposited data

How the results depend on the processing

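The family's share of counts was 2.00% with multimapping reads in the denominator and 4.57% with Mir99a, the highest locus of the tables, left out of it, against 3.61%, and it lay between 3.37 and 3.85% with either replicate left out. Per nt of hairpin, the log2 ratio of Mir30d over Mir30b was 5.93 in place of 5.70. Leaving out a replicate gave log2 ratios of 7.96 to 8.36 for Mir30e over Mir30c-1, 7.65 to 8.28 for Mir30a over Mir30c-2 and 5.55 to 5.85 for Mir30d over Mir30b. With 2 libraries, leaving out 1 only returns the value of the other, for the share as for these ratios. The calls of the 6 members between libraries, 4 passed and 2 not, kept their direction and side of the threshold under each of the 7 alternatives run for that test. The other pseudocount enters only the ratio and not the test, so that alternative could not change a call. The number of loci called lay between 167 and 183, but the number tested ran from 331 to 719. The share called was 24.9% with no count minimum and 52.3% with at least 50 counts, against 38% in the main setting. Between 38 and 49 neighbouring pairs were called, of 85 to 138 tested. Their share called lay between 31.2% (minimum of 1 count) and 44.7% (within 2 kb), against 44.2% in the main setting. With neighbours within 2 kb, none of the miR-30 pairs is in the set, so no value could be given there. No paired analysis was possible because the series holds 1 group. Depth limits Mir30c-1 and Mir30c-2 most, with 134 to 333 counts per library.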
